A study of Mus musculus with 2 samples.

Results

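The miR-148 and miR-152 seed family consists of mmu-miR-148a, mmu-miR-148b and mmu-miR-152 (named without the mouse prefix below), and it was chosen by name from the array's annotation, by a rule that reads no measured value, although earlier results of these data were known when it and the lists below were chosen. These are 3 of the 567 mouse microRNAs (miRNAs) on the array, with 2 probes each, and all 3 were detected in both vesicle preparations. The RNA came from microvesicles that 3T3-L1 adipocytes had released into conditioned medium. 3T3-L1 is an established mouse preadipocyte line that accumulates fat after hormonal induction. The later preparation was collected over 48 h from day 8 to day 10 and the earlier one over 48 h from day 2 to day 4, with 1 array for each. Both came from cells in high-glucose medium with 10% fetal calf serum that had been induced with a hormone cocktail, in which dexamethasone was at 0.25 µM, IBMX, a phosphodiesterase inhibitor, at 0.5 mM and insulin at 10 µg/ml, and no vesicles of uninduced cells were part of the comparison. From each, 100 ng of total RNA was labelled with Cy3. With 1 array per window there was no replicate check, so no difference below carries a p-value, and the number of arrays limits the precision. Standard errors (SE) and standard deviations (SD) are those between spots of an array and measure technical spread. The arrays shared 1 slide, and the effects of time window, vesicle preparation and hybridisation cannot be told apart.

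A miRNA recognises messenger RNAs mainly through its seed, bases 2 to 8 from its 5′ end, so miRNAs with a common seed share many targets. The family is best known for repressing Dnmt1, the maintenance DNA methyltransferase. miR-148a also represses the low-density lipoprotein receptor and the cholesterol exporter Abca1 in liver cells, and it promotes the adipogenic differentiation of human adipose-derived stem cells by repressing WNT1. In bulk vesicle RNA, more vesicles that carry a miRNA and more copies per vesicle cannot be told apart.

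The 3 mature sequences below, from RefSeq (GRCm38.p6), are shown because they define the family and how alike its members are, with the seed in capitals.
miR-148a: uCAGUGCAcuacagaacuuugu
miR-148b: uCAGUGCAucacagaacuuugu
miR-152: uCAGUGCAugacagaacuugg
All 3 members matched an entry of the RefSeq table, each as the 3p arm of its hairpin. Of 1679 mature mouse miRNA names in that table, these 3 (0.179%) carried CAGUGCA at bases 2 to 8, and 17 (1.01%) carried the letters anywhere. Counted from 1 at the 5′ end, miR-148a and miR-148b were identical at 20 of 22 positions and differed by C9U and U10C. miR-148a and miR-152 were identical at 18 of 21 positions and differed by C9U, U10G and U20G, and miR-148b and miR-152 differed by C10G and U20G. The differences therefore lay outside the seed, and all members shared their first 8 bases.

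The 3 genes lie on different chromosomes. In GRCm38.p6, mature miR-148a lies at chr6:51269829-51269850 on the minus strand, inside the predicted gene model Gm38821. Mature miR-148b lies at chr15:103285185-103285206 on the plus strand, inside the span of Copz1, and mature miR-152 at chr11:96850439-96850459 on the plus strand, inside the span of Copz2. Copz1 and Copz2, each on the same strand as its miRNA, encode alternative zeta subunits of coatomer, the coat of vesicles that move within the Golgi and back to the endoplasmic reticulum. Whether the miRNAs are intronic could not be read from gene spans. Each gene also has a member of the Nfe2 family of transcription factor genes as the nearest coding gene on one side: Nfe2l3 at 162759 bases from Mir148a, Nfe2 at 26722 bases from Mir148b and Nfe2l1 at 20425 bases from Mir152.

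The array files give each probe a span on the genome, whose build the sources used here do not give. None of the 6 spans fell inside the gene of the same name in GRCm38.p6, so only span lengths are reported. The 2 probes of a miRNA shared one end and differed by 1 base in length, with 19 and 20 bases for miR-148a, 18 and 19 for miR-148b and 16 and 17 for miR-152. A probe was called detected where more than 0.5 of its spots were well above background by the scanner software's flag.

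miR-148a gave a much higher signal in the late vesicles, on both of its probes. On the 19-base probe, day 8-10 vesicles gave processed intensities of 92.6, 97.8 and 103 (lowest, median and highest of 10 spots), and day 2-4 vesicles gave 26.9, 29.1 and 31.2 (9 spots). On the 20-base probe, day 8-10 vesicles gave 183, 191 and 195 (10 spots), and day 2-4 vesicles gave 58.0, 59.8 and 61.8 (9 spots). The spots of the windows did not overlap on either probe, and the lowest late spot was far above the highest early one. Separation alone was common. After the scaling given below, 35.2% of the 145 miRNAs detected on both arrays had every spot in use higher at day 8-10. Processed intensity is the spot brightness after subtraction of a fitted background, without scaling between arrays. Each array was then divided by its 75th percentile over the 279 mouse miRNA probes detected on both arrays (95.2 at day 8-10 and 108 at day 2-4). After this scaling, day 8-10 exceeded day 2-4 by 3.83-fold on the 19-base probe (1.94 as a log2 difference, with a spot SE of 0.024) and by 3.61-fold on the 20-base probe (1.85, spot SE 0.012). The mean over both probes was 1.90 on the log2 scale (spot SE 0.014). The difference between the probes, under 0.1 on that scale, was small beside the change itself.

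The miR-152 signal of the late vesicles lay above that of the early ones by less than 2-fold. Its 16-base probe gave 31.8, 34.8 and 36.1 at day 8-10 (lowest, median and highest of 9 spots), and 22.2, 25.6 and 27.9 at day 2-4 (10 spots). Its 17-base probe gave 54.0, 57.5 and 62.6 at day 8-10 and 38.2, 44.9 and 48.7 at day 2-4 (10 spots each). The windows did not overlap on either probe, but the gap between them was narrow. After scaling, the log2 difference was 0.61 on the 16-base probe (1.52-fold, spot SE 0.041) and 0.58 on the 17-base probe (spot SE 0.044). The member's log2 difference was 0.59 (spot SE 0.030), a 1.51-fold excess at day 8-10. It came to 0.058 when all probes set the 75th percentile, where the spots of the windows overlapped on both probes.

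miR-148b lay close to the detection limit and rested on 1 of its 2 probes. The 19-base probe gave 11.1, 13.6 and 16.3 at day 8-10 and 7.0, 8.25 and 11.5 at day 2-4 (lowest, median and highest of 10 spots each). All 10 spots were well above background on each array, but the mean was only 2.47 times the lowest detected probe at day 8-10 and 1.83 times at day 2-4. The coefficient of variation over spots was 12.5% at day 8-10 and 20.4% at day 2-4, against at most 4.09% for the miR-148a probes. The late spots lay mostly above the early ones, with an overlap at the edges that was present without scaling and absent after it. After scaling, the excess at day 8-10 was 1.77-fold, or 0.83 on the log2 scale with a spot SE of 0.11. It came to 0.21 with normexp background correction, which adds an offset of 50 and so pulls dim signals together.

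The 18-base probe of miR-148b was not well above background on any spot of either array. Its mean was 0.901 ± 0.929 at day 8-10 and 0.427 ± 0.882 at day 2-4 (SD over 10 spots each). The 672 negative control spots averaged -0.251 ± 1.26 at day 8-10 and -0.251 ± 1.14 at day 2-4 (SD). The mean of the short probe thus lay above the control mean in both windows, by less than 1 SD of single control spots. That SD is a wide measure for a mean of 10 spots. The probe 1 base longer was detected in both windows.

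**Figure D1:**
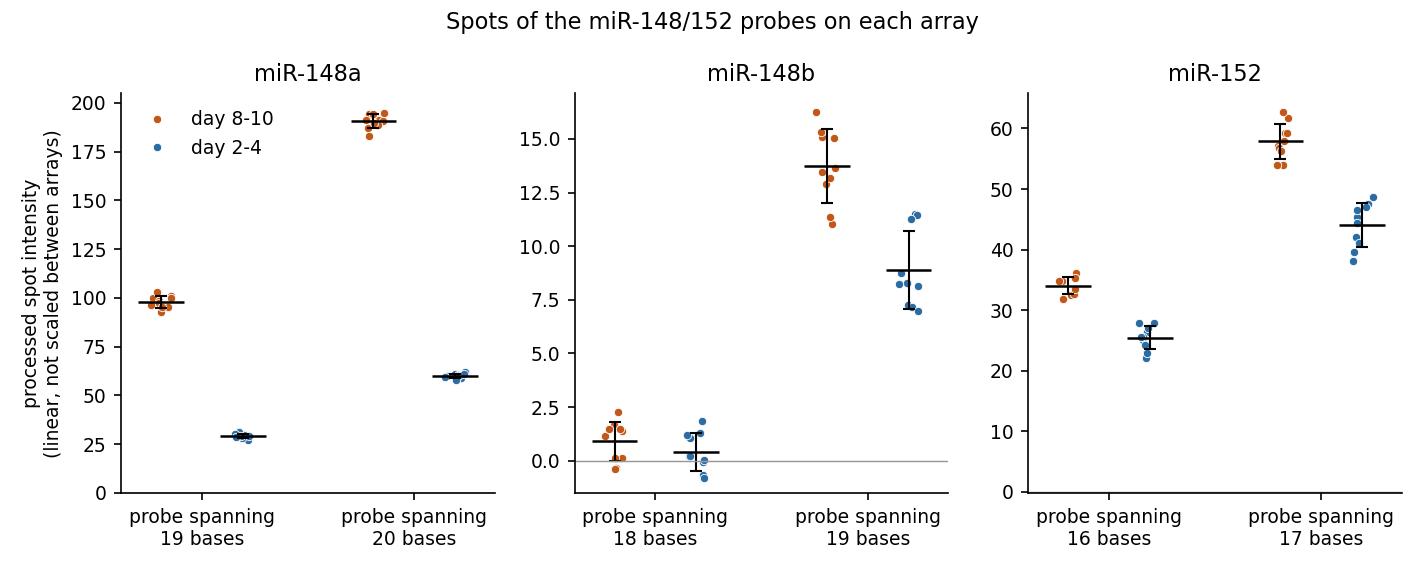
Processed spot intensity (linear, not scaled between arrays, a separate y axis for each miRNA) of every spot in use on the 2 probes of miR-148a, miR-148b and miR-152, with day 8-10 in orange and day 2-4 in blue. Horizontal lines are means and bars are the SD over spots. The miR-148a spots of day 8-10 lie well above those of day 2-4, those of miR-152 just above, and the 18-base probe of miR-148b lies around 0 in both windows.

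Because miR-148b differs from miR-148a at only 2 bases, and from miR-152 at 2 of the 21 compared, RNA of one may bind probes of another. How much it did was not tested. The unscaled ratios of day 8-10 over day 2-4 were 3.37 and 3.18 on the miR-148a probes and 1.54 on the detected miR-148b probe. The signal of miR-148b therefore did not move in proportion to that of miR-148a. Its mean went from 8.90 at day 2-4 to 13.7 at day 8-10, beside 60.0 and 191 on the 20-base miR-148a probe. Binding of a small part of the miR-148a RNA would also leave the ratios unequal, so they cannot tell how much was bound. The miR-152 probes had unscaled ratios of 1.34 and 1.31. Local background was alike for all of these spots, at 39 to 47 intensity units around the 60 member spots at day 8-10 and 40 to 47 at day 2-4. No spot was saturated.

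The scanner software's own summed gene signal, given with an error estimate and without scaling, had ratios of day 8-10 over day 2-4 in the same order, 3.26 for miR-148a, 1.58 for miR-148b and 1.33 for miR-152. For miR-148a it was 192 ± 14.3 at day 8-10 and 58.9 ± 4.52 at day 2-4, a difference of 8.88 times the combined error. For miR-152 it was 61.3 ± 4.60 at day 8-10 and 46.0 ± 3.52 at day 2-4, a difference of 2.64 times the combined error. For miR-148b it was 9.75 ± 1.37 at day 8-10 and 6.17 ± 1.15 at day 2-4, a difference of 2.00 times the combined error. The change of miR-148a was thus large against the software's error, and those of the other two members were not far above it. This error covers the spots of 1 array and not a repeat of the preparation.

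The members did not change to the same extent. The log2 difference of miR-148a exceeded that of miR-148b by 1.07 (spot SE 0.11) and that of miR-152 by 1.30 (spot SE 0.033), so the fold of miR-148a was 2.10 and 2.46 times theirs. No division of an array by a single factor can alter these gaps, since it moves all members together. Under the 14 alternatives to the processing, the gap to miR-148b ranged from 0.90 to 1.41 and the gap to miR-152 from 0.82 to 1.71, each lowest with normexp background correction and highest with quantile normalization. miR-148b exceeded miR-152 by 0.23 (spot SE 0.11), 2.08 times its spot SE, and this order turned with normexp background correction (-0.077). The members miR-148b and miR-152 were thus not clearly apart, whereas miR-148a stood above both.

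**Figure D2:**
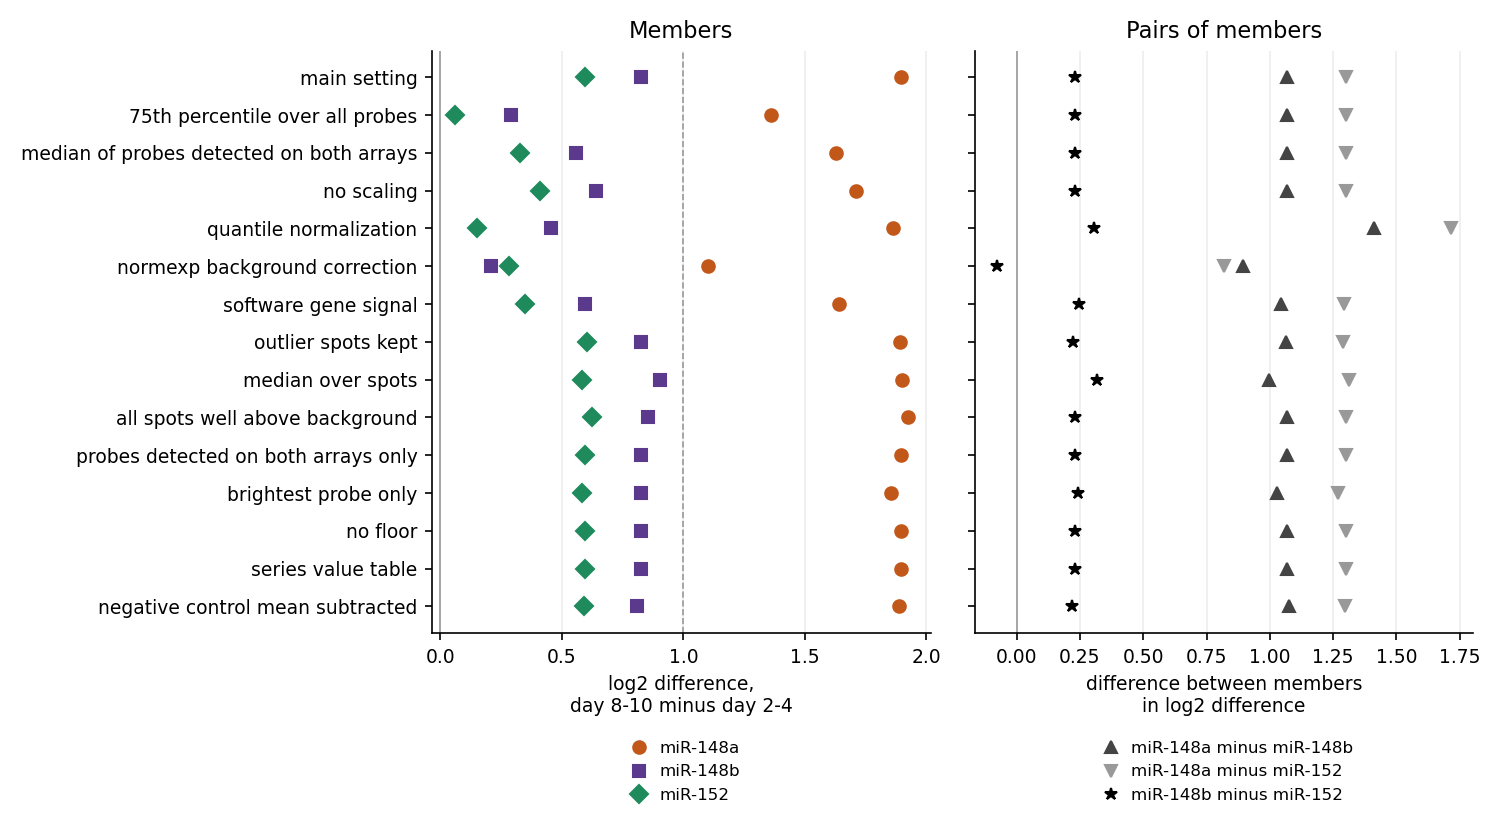
Left, log2 difference (day 8-10 minus day 2-4) of miR-148a, miR-148b and miR-152 under the main setting and 14 alternatives, with 2-fold as a dashed line; right, the gaps between pairs of members in the same values. miR-148a lies above 2-fold in every row, at 1.10 to 1.92 among the alternatives, and the other two members lie between 0 and 1 in every row.

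A miRNA was called where its difference reached 2-fold and exceeded 2 spot SE. Among the 145 miRNAs detected in both windows, day 8-10 vesicles had 23 (15.9%) called higher and 11 (7.59%) called lower. Of the 3 family members, miR-148a was called higher, which makes 1 of 3, and none was called lower. The median log2 difference was 0.83 over the family, that of miR-148b, and 0.20 over all 145. Relative to that median of all, miR-148a stood at 1.69, miR-148b at 0.62 and miR-152 at 0.39. A log2 difference larger than that of miR-148a was seen for 6 miRNAs, larger than that of miR-148b for 33 and larger than that of miR-152 for 41. After scaling, every spot of every probe in use was higher at day 8-10 for 51 miRNAs (35.2%), among them all 3 members, although the spots of miR-148b and miR-152 overlapped under other scalings.

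Scaling by another single factor moved the members together with the other miRNAs, whereas quantile normalization moved the 3 members by unequal amounts. With the 75th percentile over all probes the median of all 145 moved by -0.54 on the log2 scale, with quantile normalization by -0.31, with the median of the detected probes by -0.27, without scaling by -0.19 and with the software's gene signal (170 miRNAs) by -0.16. The sign of each member stayed positive under all 14 alternatives, and miR-148a passed 2-fold under each of them. The deposited value table gave the members' main values again, being the same signal. So did dropping the lower limit on signal, or using only probes detected on both arrays. Relative to the median of all, the values with normexp background correction were 0.98 for miR-148a, 0.086 for miR-148b and 0.16 for miR-152.

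**Figure D3:**
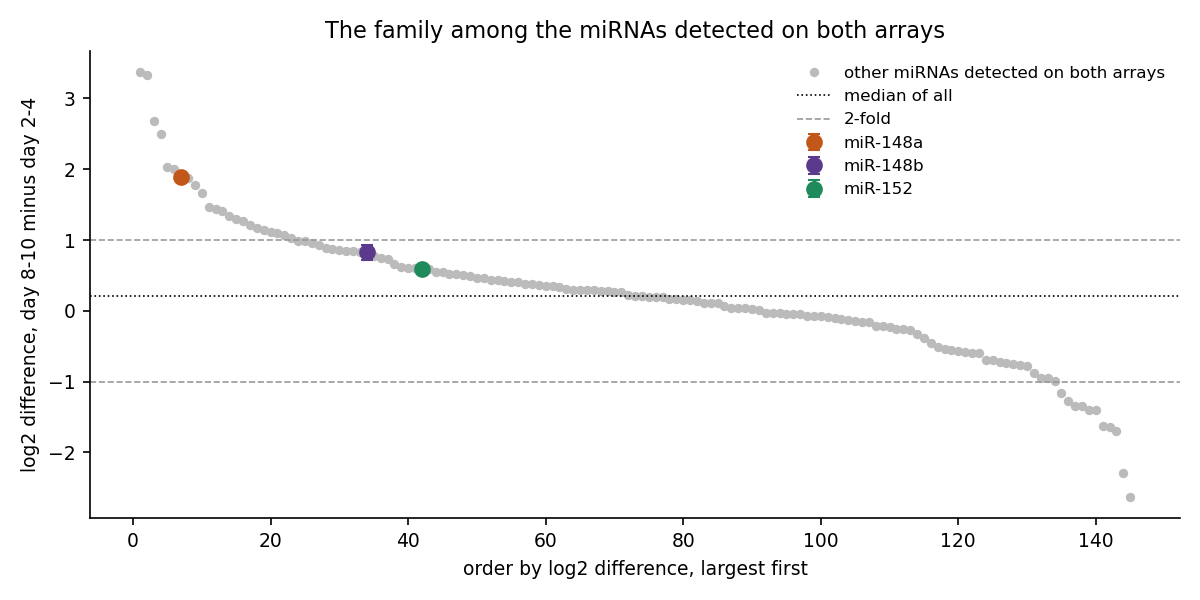
The 145 miRNAs detected on both arrays in order of their log2 difference (day 8-10 minus day 2-4), largest first, with the family members in colour and bars of 1 spot SE. The dotted line is the median of all (0.20) and dashed lines mark 2-fold; miR-148a has 6 miRNAs above it, miR-148b 33 and miR-152 41.

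The miRNAs nearest to each member in log2 difference over the 2 arrays belonged to other families. Nearest to miR-148a were miR-29c at 1.87 (gap 0.021), miR-494 at 2.01 (gap 0.11) and miR-103 at 1.78 (gap 0.11). With normexp background correction miR-29c was at 0.65, against 1.10 for miR-148a. Nearest to miR-148b were let-7i at 0.83, miR-30a at 0.85 and miR-27b at 0.85, all with gaps of at most 0.024. Nearest to miR-152 were miR-28 at 0.60, miR-22 at 0.59 and miR-30b at 0.61, with gaps of at most 0.015. The values of miR-27b, miR-28 and miR-30b each rested on 1 of 2 probes. With 2 arrays, such likeness describes a single difference per miRNA.

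The other arm of the miR-148a hairpin was not seen in either preparation. Its hairpin in RefSeq (GRCm38.p6, chr6:51269812-51269910, minus strand) is shown because both arms had probes, with the 5p arm and then the 3p arm in capitals.
Mir148a hairpin: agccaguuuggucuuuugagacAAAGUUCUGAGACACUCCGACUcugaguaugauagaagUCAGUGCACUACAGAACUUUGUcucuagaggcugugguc
The array names the 5p arm miR-148a*, the passenger strand that is usually degraded when the 3p arm is loaded into Argonaute. None of its 20 spots in use at day 8-10 and none of its 19 at day 2-4 was well above background. Its 4 probes, spanning 13 to 16 bases, had mean intensities from -0.982 to 0.653 at day 8-10 and from -1.24 to -0.260 at day 2-4. All lay within 1 SD of single control spots from the negative control mean. Of the family's passenger strands, only this one had probes on the array.

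Several other miRNAs that adipogenesis raises, or that promote it, were higher in the late vesicles too. The list held 20 besides the family, and both windows detected 18. Day 8-10 vesicles had 8 of these 18 called higher and none called lower, beside 15.9% called higher and 7.59% called lower over all 145. Their median log2 difference was 0.92, beside 0.20 over all 145. The 4 largest were miR-103 (1.78, spot SE 0.030), miR-107 (1.47, spot SE 0.018), which lie in introns of the Pank genes of coenzyme A synthesis, miR-365 (1.44, spot SE 0.028), a brown-fat miRNA, and miR-210 (1.41, spot SE 0.033), which hypoxia induces. The count was 1 of 18 with normexp background correction, where 5 of all 145 were called higher. With the 75th percentile over all probes it was 1 of 18, beside 10 of all 145. Of the 8, miR-103 alone was called higher under all 14 alternatives, as miR-148a was.

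Repressors of adipogenesis, and miRNAs that decline during it, formed a list of 12, of which both windows detected 7. Day 2-4 vesicles detected 9 of the list and day 8-10 vesicles 7, and those seen in a single window could not be called. None of the 7 was called in either direction, and shares of 15.9% and 7.59% over all 145 leave little room for calls among 7. Their median log2 difference was 0.26, turning negative under 4 of the 14 alternatives. They included miR-27b, a repressor of the adipogenic regulator Pparg, at 0.85 on 1 of its 2 probes, and miR-221 at -0.57.

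The lists closest to the family's known targets were short, so their counts say little beside the 15.9% called higher over all 145. Of 12 miRNAs that act on cholesterol and lipoprotein genes, 5 were detected on both arrays and none passed 2-fold. Their median was 0.85, the value of miR-27b, which rested on 1 of its 2 probes. With normexp background correction the median was 0.24. This list shared miR-27a and miR-27b with the list of repressors. Of 7 miRNAs known to target DNA methyltransferases, 5 were detected on both arrays and 2 were called higher, miR-29b (2.50, spot SE 0.068) and miR-29c (1.87, spot SE 0.038), which repress Dnmt3a and Dnmt3b. The value of miR-29b rested on 1 of its 2 probes. Neither passed 2-fold with normexp background correction. Their list median was 0.88, the value of miR-185, which rested on 1 of its 2 probes and was also in the cholesterol list. miR-143 was both in this list and in that of miRNAs that adipogenesis raises or that promote it. The medians of the lists are therefore not independent of each other. Only vesicle miRNA was measured, so no level of Dnmt1 or any other target was part of these data.

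**Figure D4:**
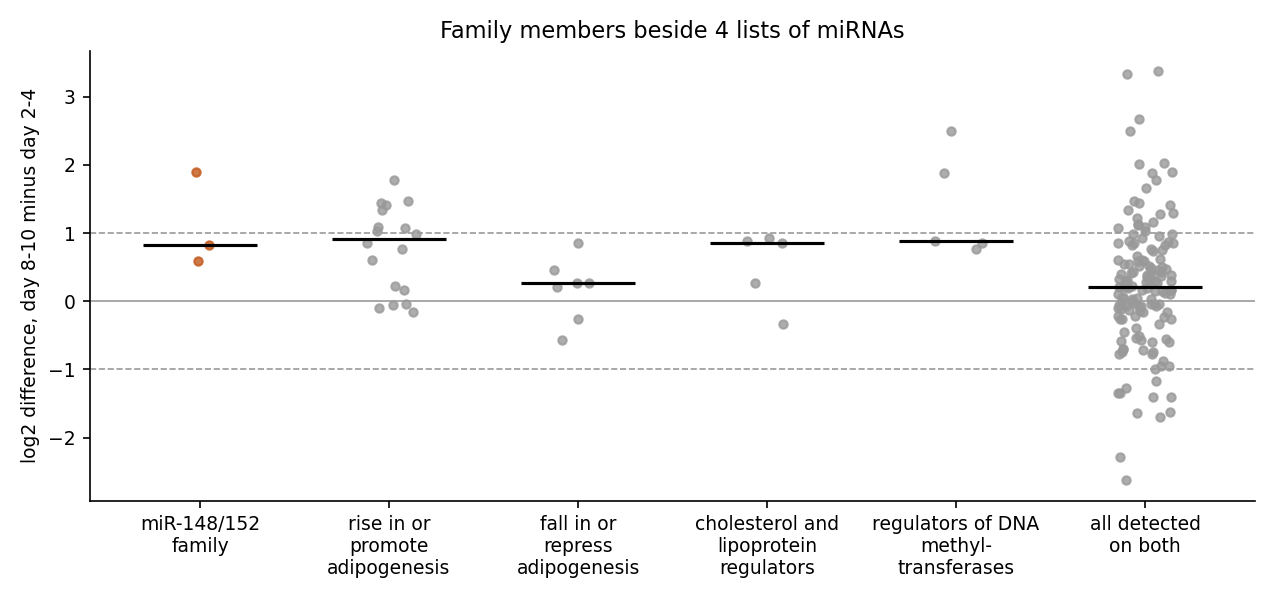
Log2 differences (day 8-10 minus day 2-4) of the family members (orange), the members of the 4 lists detected on both arrays and all 145 miRNAs detected on both arrays (grey), with black lines for medians. The medians are 0.83 for the family, 0.92, 0.26, 0.85 and 0.88 for the lists from left to right, and 0.20 for all. Some miRNAs are shared between lists.

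Serum RNA and RNA of other cell types could have been present. Of 567 mouse miRNAs, 166 were detected at day 8-10 and 156 at day 2-4. Among 7 blood-cell miRNAs, which serum also carries, 4 were detected at day 8-10 and 3 at day 2-4, with a summed scaled signal of 7.27 at day 8-10 and 7.01 at day 2-4. Most of both sums came from miR-451. Its log2 difference was 0.043, and the sign turned under 6 of the 14 alternatives. All 5 miRNAs listed for fat were detected in both windows, with a sum of 6.46 at day 8-10 and 2.68 at day 2-4. Their median log2 difference was 1.34 and 3 were called higher, beside 15.9% of all 145. All 5 also belong to the list of miRNAs that adipogenesis raises or that promote it, so these 3 calls are among its 8. With normexp background correction miR-103 was at 1.15, but miR-107 (0.91) and miR-378 (0.72) fell short of 2-fold. For fibroblast and mesenchymal miRNAs, 5 of the 6 on the array were detected in both windows, with sums of 11.0 at day 8-10 and 12.8 at day 2-4. Their median log2 difference was -0.95, that of miR-199b, and miR-214 (-1.63) and miR-199a-5p (-1.40) were called lower, beside 7.59% of all 145. The set was mixed, since miR-22 (0.59) and miR-143 (0.77) went the other way, short of 2-fold. With normexp background correction miR-199a-5p was at -0.67. None of 6 muscle and none of 2 endothelial miRNAs was detected. Of 6 liver and pancreas miRNAs, 2 were detected at day 8-10 and 1 at day 2-4 (sums 0.172 and 0.0491), of 7 epithelial miRNAs 1 and 0 (sums 0.180 and 0), and of 5 neural miRNAs 1 in each window (sums 0.0676 and 0.0882). These sums were not set against the members' own signal, since signals of different probes are not amounts, and the part of serum or of other cells in the differences was not tested.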

How the data were processed

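Per the labels' protocols, vesicles were prepared by ultracentrifugation, RNA was extracted with Trizol, dephosphorylated, labelled and hybridised to 1-colour Agilent mouse miRNA arrays. Per the file headers, the deposited intensity values were made by subtracting a fitted spatial background surface, in Feature Extraction 9.5.3.1. They were not normalized between arrays. The software's flags and summed gene signals come from the same files, per the file headers. The deposited value table matched the scanner's processed signal at 24986 of 24986 spots, and was therefore linear and uncentred, with medians of 0.646 at day 8-10 and 0.516 at day 2-4.

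Controls were excluded, as were outlier spots (249 at day 8-10 and 239 at day 2-4). Spots were divided by the array's 75th percentile over detected mouse miRNA probes, set to no lower than the lowest detected probe (5.55 at day 8-10 and 4.86 at day 2-4, in intensity units), log2 transformed and averaged per probe. Probes detected in either window were averaged per miRNA, and one detected in a single window entered at or near the floor in the other. Normexp was run with limma 3.58.1 (R 4.3.3), all else with Python 3.11.15. The calculation was tested on simulated arrays with known changes. That check first removed the median shift of the unchanged miRNAs, so it did not cover the choice of scaling.

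The members and lists were chosen with earlier results of these data known. Named miRNAs were the members, the passenger strand miR-148a* and the 3 miRNAs nearest to each member in log2 difference. Up to 4 called members of each of the 4 lists were also named in each direction. After their values were seen, miR-27b and miR-221 were named from their list, and miR-143, miR-199a-5p, miR-199b, miR-214, miR-378 and miR-451 from the marker lists. Also named then were miR-27a, miR-143 and miR-185, as shared between lists. With 1 array per window no test was possible, and 13 other processing choices, and 1 added after seeing the data (subtraction of the negative control mean) were tried. Of the array's 567 names, 466 matched the RefSeq miRNA table.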

Additional observations from a re-analysis of the deposited data

How the results depend on the processing

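No paired analysis was possible because each window had 1 array. Of 14 alternatives, those that changed only the spots, probes, floor or control subtraction, and the deposited value table, moved every value by less than 1 SD between spots and every count by less than 1.5 times. With the 75th percentile over all probes, the log2 differences were 1.36 (miR-148a), 0.29 (miR-148b) and 0.058 (miR-152), 10 miRNAs were higher and 29 lower, and the list medians were 0.38 (rise in adipogenesis), -0.27 (fall in adipogenesis), 0.31 (cholesterol) and 0.35 (DNA methyltransferases). With the median of detected probes they were 1.63 (miR-148a) and 0.33 (miR-152), 19 were lower, and the list medians were 0.65, -0.0038, 0.58 and 0.61 in the same order. Without scaling they were 1.71 (miR-148a) and 0.41 (miR-152), with list medians of 0.73 (rise) and 0.078 (fall). With quantile normalization they were 0.45 (miR-148b) and 0.15 (miR-152), the gap of miR-148a to miR-152 was 1.71, 17 were lower, and the list medians were 0.65 (rise), -0.16 (fall) and 0.51 (cholesterol). With normexp background correction they were 1.10 (miR-148a), 0.21 (miR-148b) and 0.28 (miR-152), the gap of miR-148a to miR-152 was 0.82 and that of miR-148b to miR-152 reversed to -0.077, 5 were higher and 5 lower, and the list medians were 0.37 (rise), 0.24 (cholesterol) and 0.61 (DNA methyltransferases). With the software's gene signal they were 1.64 (miR-148a) and 0.35 (miR-152), 22 were lower, and the list medians were 0.67, -0.30, 0.50 and 0.60. Single-factor scalings move all miRNAs alike by construction, and the offset of normexp pulls dim signals together; the cause of the other shifts was not tested. Signal over background limits miR-148b most, since it lay within 3-fold of the lowest detected probe on both arrays.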
